A study of Mus musculus with 10 samples.

Results

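The genes described here are 40 cell cycle genes, a set drawn up by gene function, out of 32285 genes counted in each of 2 single-cell datasets from mouse Peyer's patches and blood. They comprise 12 genes of DNA replication, 6 cyclin and Cdk1 genes, 9 genes of mitotic kinases, the spindle checkpoint and the anaphase-promoting complex (APC/C), 6 genes of the chromosome and kinetochore and 7 genes of the spindle and midzone. All 40 were found by symbol and by gene identifier, and all 40 had enough counts to be tested. For counts per cell, 14 of them served as S-phase genes and 24 as mitotic genes.

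A cell that divides first makes the enzymes that copy its DNA. It then builds cyclin B and Cdk1 activity, condenses its chromosomes, assembles a spindle and finally destroys cyclin B through the APC/C. Most of these transcripts are made only around the phase in which they act, so in a tissue they mark cells that are cycling, while blood monocytes are largely outside the cycle.

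The cells were sorted from untreated donors for Peyer's patches, which are lymphoid follicles in the gut wall, and from donors given clodronate liposomes 9 days earlier for blood, a treatment that depletes phagocytes. All were female C57BL/6Rj mice, with 30 patch donors and 20 blood donors pooled in dataset 1 and 20 and 18 in dataset 2. LysoDCs are lysozyme-rich phagocytes of the patch, and cDC2s are conventional type 2 dendritic cells of the same tissue. The blood cells, all CD115-high, were sorted as Ly6C+ monocytes, CD43+ monocytes or double-negative cells without either marker (DN blood cells). By the labels, DN cells of dataset 2 were split by the marker CCR2, as CCR2+ DN monocytes and CCR2- DN blood cells in separate libraries. They were not separated here, and dataset 1 has no such split in its labels. The DN cells of the datasets may therefore differ in make-up, which was not tested. Each population carried a hashtag, an antibody with a DNA barcode, bound after the sort in dataset 1 and before it in dataset 2. Tissue of origin, donor treatment and population therefore change together between LysoDCs and blood cells, and their parts cannot be told apart.

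Dataset 1 was 1 library with 4 LysoDC subsets, 2 cDC2 subsets and 3 blood populations. In dataset 2, LysoDC hashtags carry no subset, and by the labels each blood population came from its own library or libraries. After filtering, 7217 and 7470 cells remained, with 2714 and 681 LysoDCs, and median depths per population ran from 2312 to 14279 unique molecular identifiers (UMIs, each counting 1 captured transcript). The 7 LysoDC markers summed to 66379 and 61946 counts per 1000000 UMIs (CPM) in LysoDCs and to between 4570 and 45065 CPM in blood populations, where Lyz2 is also a monocyte gene. The summed C1q genes, which are high in LysoDCs, stood at 5.05% to 5.89% of their LysoDC level in the blood populations of dataset 1 and at 0.583% to 1.19% in dataset 2. The datasets shared 37 cell barcodes.

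Levels were summed over the cells of each population in each dataset, which gave 8 sums (LysoDCs and 3 blood populations in each dataset). With 2 sums a population, p-values rest on the spread that is left after the shift between datasets is removed, shared over all populations. For each gene it was also drawn toward the spread of other genes, with 3 residual and a median of 7.65 prior degrees of freedom. The datasets differ in mice, in tagging before or after the sort, in the labelled DN sort and in library layout, so this spread mixes these. In every list of values below, dataset 1 comes before dataset 2. Because a sum pools cycling and resting cells, fewer cells of a type and less RNA per cell cannot be told apart in it, which the counts per cell further below address in part.

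Against both monocyte types, 36 of the 40 genes were higher in LysoDCs, 2 were lower and 2 did not pass (edgeR quasi-likelihood test, Benjamini-Hochberg adjusted p below 0.05 over 11458 genes). Over all genes tested, 57.3% passed in this comparison, 29.9% as higher and 27.4% as lower. The median fitted log2 fold change of the 40 genes was 3.59, or 3.45 with the 3 genes that had no UMI in a monocyte type set at a floor of 3 counts per type, against 0.01 over all genes. The median was 3.88 for the 24 mitotic genes and 1.91 for the 14 S-phase genes. Both monocyte types entered this comparison with equal weight on the log scale. The low-count filter asks for counts in the 2 sums of 1 population only. Genes nearly absent from blood, such as Ccna2, therefore passed it through their LysoDC sums. With no low-count filter, 36 genes were again higher and 2 lower.

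**Figure D1:**
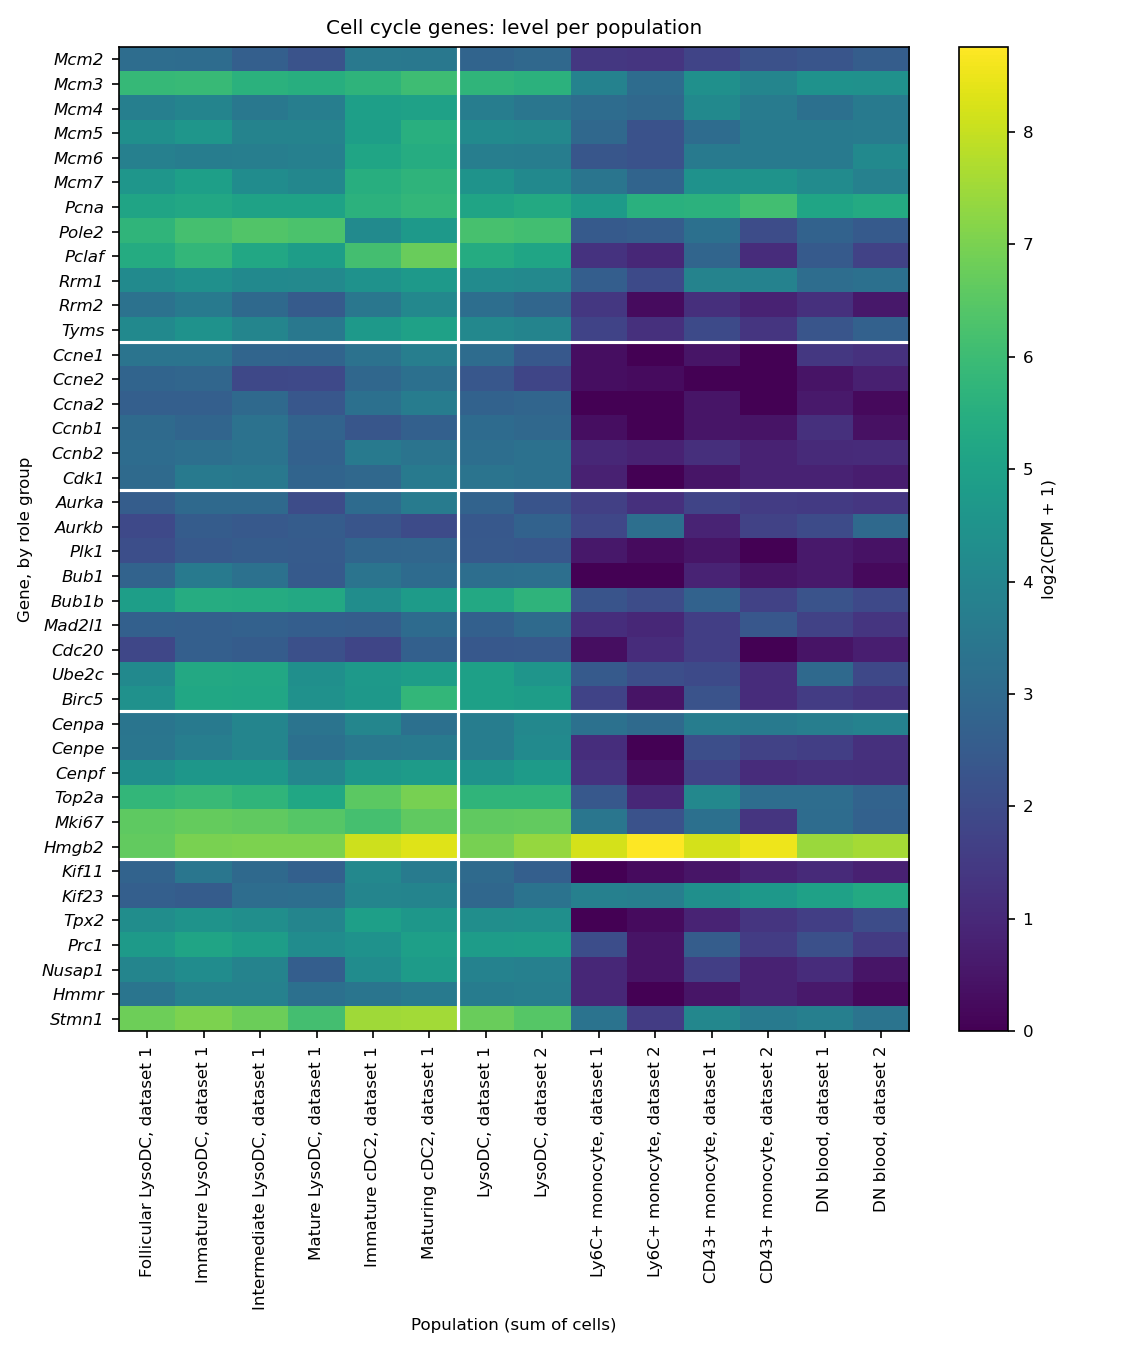
Level of the 40 cell cycle genes (rows, by role group) in each population (columns), as log2(CPM + 1) by colour, with the patch subsets of dataset 1 left of the vertical line. Most rows are bright in patch populations and dark in blood, while Hmgb2, Kif23 and Pcna are as bright or brighter in blood.

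Among replication genes, 10 of 12 were higher in LysoDCs than in monocytes. Mcm3, a subunit of the MCM helicase that opens DNA, was at 51.6 and 47.9 CPM in LysoDCs, 13.8 and 7.503 in Ly6C+ monocytes, 19.9 and 15.02 in CD43+ monocytes and 21.2 and 20.6 in DN blood cells. Its LysoDC sums lay above every blood sum. The log2 fold change against monocytes was 2.07 ± 0.16 (SE, derived from the F statistic of the test, adjusted p = 1.72e-06). Pole2, the second subunit of DNA polymerase epsilon, was at 72.9 and 68.2 CPM in LysoDCs and between 3.08 and 8.30 CPM in the 6 blood sums. That gap came to a log2 fold change of 3.94 ± 0.20 (adjusted p = 9.94e-08). Mcm7, another helicase subunit, was at 21.3 and 16.7 CPM in LysoDCs, 9.71 and 6.16 in Ly6C+ monocytes, 21.2 and 21.6 in CD43+ monocytes and 17.9 and 13.2 in DN blood cells. CD43+ monocytes thus held as much Mcm7 as LysoDCs, and the log2 fold change against both monocyte types was 0.74 ± 0.17 (adjusted p = 0.0029).

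Pcna and Mcm4 did not pass. Pcna, the sliding clamp of the replication fork, was at 33.5 and 39.2 CPM in LysoDCs, 26.5 and 46.0 in Ly6C+ monocytes, 49.0 and 67.8 in CD43+ monocytes and 34.7 and 40.3 in DN blood cells. Its highest sums were the CD43+ monocytes of both datasets, and its log2 fold change of LysoDCs against monocytes was -0.13 ± 0.16 (adjusted p = 0.522). Mcm4 ranged from 9.96 to 12.2 CPM in LysoDCs and from 6.73 to 17.0 CPM in blood, where the groups overlapped (log2 fold change 0.35 ± 0.23, adjusted p = 0.217). The other 7 replication genes (Mcm2, Mcm5, Mcm6, Pclaf, Rrm1, Rrm2 and Tyms) were all higher, by log2 fold changes from 1.15 for Mcm6 to 4.39 for Pclaf, the PCNA-associated factor. Their LysoDC levels ran from 6.06 to 40.7 CPM.

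All 6 cyclin and Cdk1 genes were higher in LysoDCs. Ccnb1, which encodes the mitotic cyclin B1, was at 7.44 and 6.82 CPM in LysoDCs, 0.243 and 0 in Ly6C+ monocytes, 0.415 and 0.385 in CD43+ monocytes and 1.30 and 0.313 in DN blood cells. Ccnb2, for cyclin B2, was at 7.999 and 8.60 CPM in LysoDCs and between 0.770 and 1.25 CPM in all blood sums. Cdk1, the kinase that drives mitosis, was at 9.24 and 8.74 CPM in LysoDCs and between 0 and 0.782 CPM in blood. LysoDC and blood sums did not overlap for any of these. Log2 fold changes against monocytes were 5.18 ± 0.57, 3.32 ± 0.32 and 4.49 ± 0.45 in the same order (adjusted p = 2.27e-05, 7.57e-06 and 1.12e-05). The monocyte sums held 3, 13 and 6 of their UMIs, so the folds of Ccnb1 and Cdk1 are uncertain in size. Ccne1, the G1/S cyclin E1, was at 7.52 and 4.37 CPM in LysoDCs, 1.69 and 1.39 in DN blood cells and under 0.5 CPM in the 4 monocyte sums, which held 2 of its UMIs in all. Ccna2 had 252 UMIs in the LysoDC sums and 1 in the monocyte sums, and Ccne2 had 170 and 2, so that no fold is given for them (adjusted p = 3.37e-05 and 0.000226).

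All 9 genes of mitotic kinases, the checkpoint and the APC/C were higher in LysoDCs than in monocytes. Bub1b, the spindle checkpoint protein BubR1, was at 38.4 and 50.5 CPM in LysoDCs and between 2.31 and 5.81 CPM in blood (log2 fold change 3.75 ± 0.23, adjusted p = 3.69e-07). Ube2c, the ubiquitin-conjugating enzyme of the APC/C, was at 30.5 and 22.7 CPM in LysoDCs, 4.61 and 3.27 in Ly6C+ monocytes, 2.91 and 1.16 in CD43+ monocytes and 6.91 and 2.71 in DN blood cells. Birc5, survivin of the chromosomal passenger complex, was at 30.2 and 28.4 CPM in LysoDCs and between 0.385 and 3.74 CPM in blood. For all 3 genes both LysoDC sums lay above every blood sum, and Ube2c and Birc5 had log2 fold changes of 3.44 ± 0.24 and 4.24 ± 0.31 against monocytes (adjusted p = 7.66e-07 and 1.53e-06).

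Aurka and Aurkb, the Aurora kinases of the spindle and of the passenger complex, had smaller differences, and Aurka was higher by 1.51 ± 0.31. Aurkb was at 4.34 and 5.73 CPM in LysoDCs, 2.67 and 8.08 in Ly6C+ monocytes, 0.830 and 2.31 in CD43+ monocytes and 3.00 and 6.95 in DN blood cells. LysoDCs lay above Ly6C+ monocytes in dataset 1 and below them in dataset 2. Its log2 fold change of 1.12 ± 0.36 (adjusted p = 0.0202) fell short of the threshold with DESeq2 (adjusted p = 0.0515), without the dataset block (adjusted p = 0.234) and without any of 4 of the 8 sums. The other 5 genes (Aurka, Plk1, Bub1, Mad2l1 and Cdc20) had LysoDC levels from 3.82 to 8.19 CPM, and Bub1 had 344 UMIs in LysoDCs and 3 in the monocyte sums.

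Among 6 chromosome and kinetochore genes, 5 were higher in LysoDCs and Hmgb2 was lower. Top2a, the topoisomerase that untangles replicated DNA, was at 51.7 and 51.9 CPM in LysoDCs, 4.37 and 0.962 in Ly6C+ monocytes, 16.2 and 7.70 in CD43+ monocytes and 7.69 and 5.91 in DN blood cells (log2 fold change against monocytes 3.46 ± 0.26, adjusted p = 6.08e-06). Mki67, which encodes the proliferation antigen Ki-67 that coats mitotic chromosomes, was at 96.5 and 99.8 CPM in LysoDCs and between 1.54 and 9.95 CPM in blood (4.35 ± 0.32, adjusted p = 4.55e-05). Both genes set LysoDCs clearly apart from every blood sum. Cenpa, the centromeric histone, was at 12.0 and 16.1 CPM in LysoDCs, 8.74 and 7.12 in Ly6C+ monocytes, 12.0 and 10.8 in CD43+ monocytes and 12.5 and 13.7 in DN blood cells. Its groups overlapped in part (0.72 ± 0.18, adjusted p = 0.00592), and the call was lost without the LysoDC sum of dataset 2 (0.58, adjusted p = 0.0745).

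Hmgb2, a DNA-bending chromatin protein, had the opposite order. It was at 124 and 164 CPM in LysoDCs, 290.3 and 432 in Ly6C+ monocytes, 293 and 372 in CD43+ monocytes and 173 and 189 in DN blood cells. Both LysoDC sums were below every blood sum, and the log2 fold change against monocytes was -1.09 ± 0.14 (adjusted p = 6.43e-05). Cenpe and Cenpf, kinetochore proteins, were higher in LysoDCs by log2 fold changes of 3.71 and 4.53.

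Of 7 spindle and midzone genes, 6 were higher in LysoDCs and Kif23 was lower. Tpx2, an activator of Aurora A on the spindle, was at 18.9 and 19.5 CPM in LysoDCs, 0 and 0.192 in Ly6C+ monocytes, 0.830 and 1.54 in CD43+ monocytes and 2.09 and 3.09 in DN blood cells. Prc1, which bundles midzone microtubules, was at 27.6 and 28.5 CPM in LysoDCs and between 0.385 and 4.98 CPM in blood. Stmn1, a microtubule-destabilizing protein, was at 108 and 86.4 CPM in LysoDCs and between 1.92 and 15.8 CPM in blood. LysoDC and blood sums were far apart for these 3 genes, with log2 fold changes of 5.88 ± 0.37, 3.78 ± 0.34 and 3.77 ± 0.24 against monocytes (adjusted p = 3.65e-07, 1.78e-05 and 3.31e-06). The monocyte sums held 7 Tpx2 UMIs, so its fold is uncertain in size, against 32 UMIs for Prc1 and 113 for Stmn1. Kif11, Nusap1 and Hmmr were higher by 3.97 to 4.73, with 4, 13 and 7 UMIs in the monocyte sums.

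Kif23, the motor of the centralspindlin complex that acts in cytokinesis, was at 6.62 and 9.14 CPM in LysoDCs, 13.1 and 12.3 in Ly6C+ monocytes, 19.5 and 24.6 in CD43+ monocytes and 31.0 and 38.5 in DN blood cells. LysoDCs had the lowest sums and DN blood cells the highest in both datasets. The log2 fold change of LysoDCs was -0.92 ± 0.16 against monocytes (adjusted p = 0.000599) and -2.09 ± 0.17 against DN blood cells (adjusted p = 2.31e-06).

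**Figure D2:**
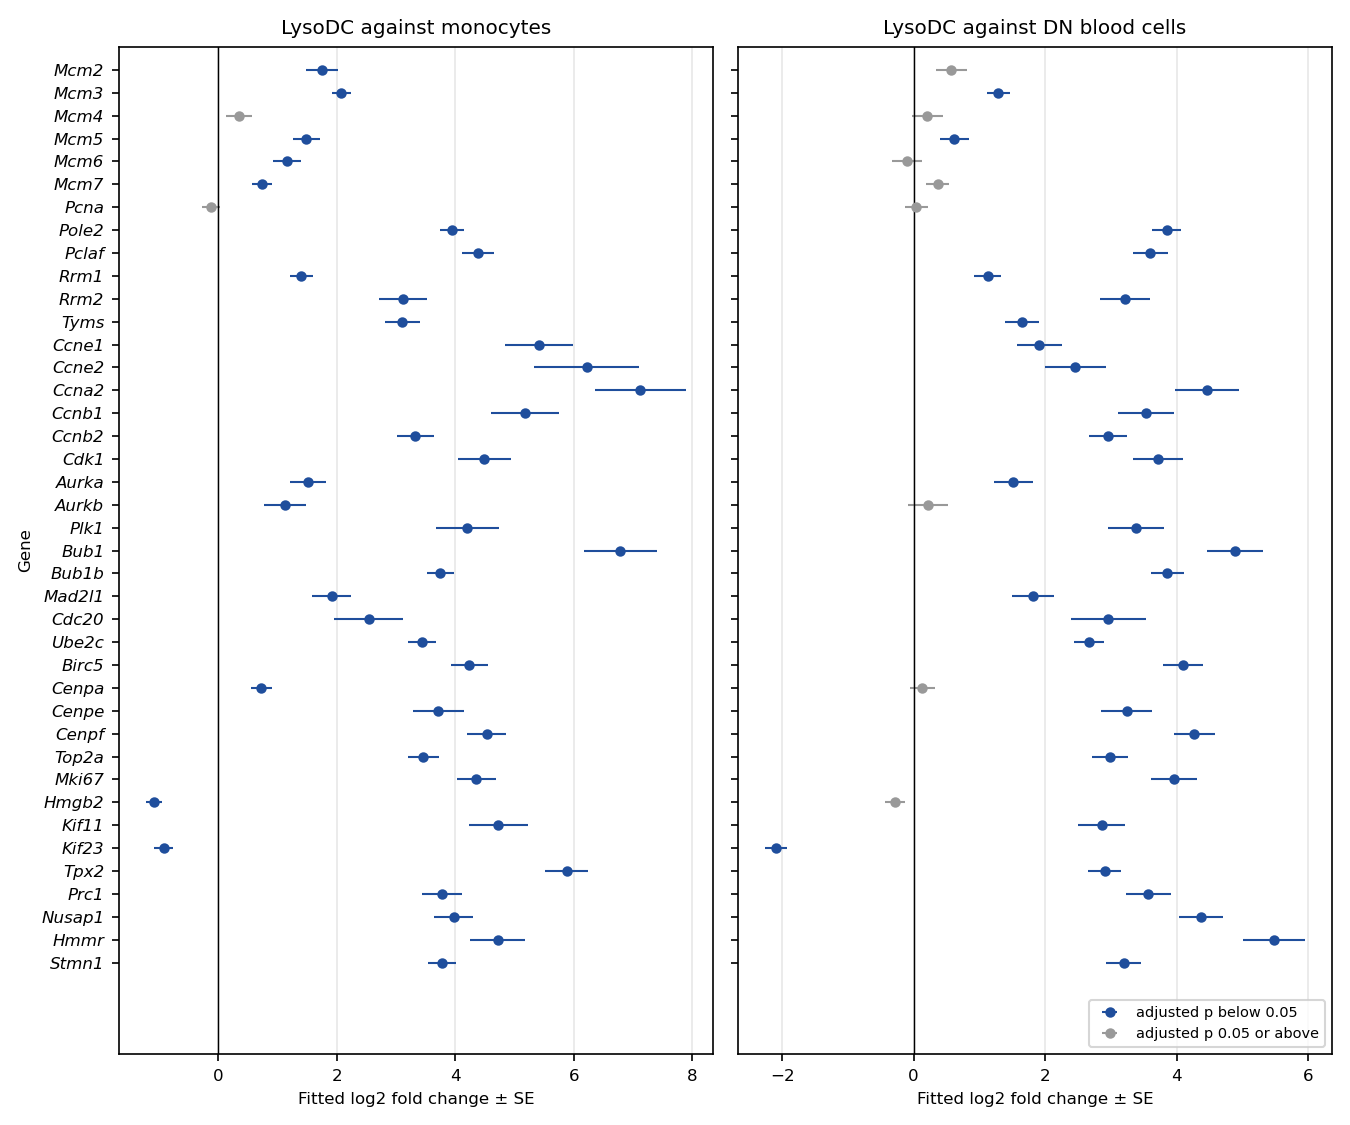
Fitted log2 fold change of LysoDCs against monocytes (left) and against DN blood cells (right) for the 40 genes. Bars are 1 SE, derived from the F statistic of the test. Blue points passed at an adjusted p below 0.05 and grey points did not, and Hmgb2 and Kif23 lie left of 0 in both panels. The fits for Ccna2, Ccne2 and Bub1 against monocytes rest on a monocyte type with no UMI and depend on the prior count.

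LysoDCs were higher than DN blood cells in 31 of the 40 genes and lower in Kif23, and 8 genes did not pass (background 52.1% of genes tested, 26% higher and 26.1% lower). The 8 were Mcm2, Mcm4, Mcm6, Mcm7, Pcna, Aurkb, Cenpa and Hmgb2. All 6 cyclin and Cdk1 genes were again higher in LysoDCs, whereas 7 of 12 replication genes were. For Mcm6 the values were 12.6 and 12.1 CPM in LysoDCs and 10.8 and 17.0 CPM in DN blood cells, with a log2 fold change of -0.10 ± 0.23 (adjusted p = 0.746). The median log2 fold change was 2.93 for the 40 genes and -0.03 for all genes. This comparison shares its LysoDC sums with the comparison against monocytes.

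Between blood populations, 13 of the 40 genes differed between DN blood cells and Ly6C+ monocytes, 12 of them higher and Hmgb2 lower (background 14.8% of genes tested, 7.37% higher and 7.39% lower). The 12 were 5 helicase subunits (Mcm2, Mcm3, Mcm5, Mcm6 and Mcm7), Rrm1 and Tyms of nucleotide synthesis, Ccne1, Cenpa, Top2a, Kif23 and Tpx2. The log2 fold change of Top2a was 1.49, and it turned to -0.36 with a background-scaled hashtag call. Mcm6 was at 10.8 and 17.0 CPM in DN blood cells and 4.13 and 3.66 CPM in Ly6C+ monocytes (log2 fold change 1.89 ± 0.30, adjusted p = 0.00285). Of the 9 genes in the kinase, checkpoint and APC/C group, 0 passed here with edgeR, 0 had an unadjusted p below 0.05 and 0 passed with DESeq2. Some had too few UMIs to show a difference: Bub1 had 9 in the DN sums and 3 in the monocyte sums, and Plk1 14 and 4. Others had more, such as Aurkb with 223 and 61. Leaving out the Ly6C+ monocyte sum or the DN sum of dataset 2 lowered the count of 13 and the count over all genes. A background-scaled hashtag call, chosen after the data were seen, gave 5 of the 40 genes and 1417 of 11315 genes over all. In dataset 2 these populations came from different libraries.

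Against CD43+ monocytes, DN blood cells were higher in Tyms, Ccne1, Aurkb, Ube2c and Kif23 and lower in Hmgb2 (background 33.3% of genes tested, 17.1% higher and 16.2% lower). CD43+ monocytes were higher than Ly6C+ monocytes in Mcm6, Mcm7, Rrm1, Top2a and Kif23 and lower in Aurkb (background 27.9% of genes tested, 13.5% higher and 14.5% lower). In each of these comparisons 6 of the 40 genes passed, a smaller share than over all genes. Leaving out either CD43+ sum or the DN sum of dataset 2 reduced the DN calls against CD43+ monocytes, and those over all genes too. The count was 3 with DESeq2 and 2 without the dataset as replicate block, where 3163 and 2792 of 11458 genes passed over all. Leaving out the CD43+ sum of dataset 1 reduced the calls of CD43+ against Ly6C+ monocytes, among the 40 genes and over all genes.

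Counted per cell, LysoDCs held a minority of cells with many mitotic genes, and blood held almost none. At least 3 distinct mitotic genes were found in 492 of 2714 LysoDCs (18.1%, exact Clopper-Pearson 95% interval 16.7% to 19.6%) and in 106 of 681 (15.6%, 12.9% to 18.5%). The shares were 0.215% and 0.115% in Ly6C+ monocytes, 0.302% and 0.105% in CD43+ monocytes and 0.834% and 1.43% in DN blood cells. A single LysoDC held up to 24 of the 24 mitotic genes in each dataset, a Ly6C+ or CD43+ monocyte at most 4, and a DN blood cell at most 4 in dataset 1 and 9 in dataset 2. Intervals cover counting error only.

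The limit of 3 genes cuts through many LysoDCs, so the share depends on it. In dataset 1, 252 of the 492 cells had exactly 3 mitotic genes, 74 had 4, 21 had 5 and 145 had 6 or more. In dataset 2 the numbers were 50, 15, 10 and 31. With at least 5 genes, the share was 6.12% and 6.02% in LysoDCs, 0 in both monocyte types of both datasets and 0 and 0.241% in DN blood cells. In Ly6C+ monocytes of dataset 1 this was 0 of 931 cells, for which a limit of 3 counts allows a share of up to 0.322% and the exact interval one of up to 0.395%.

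Depth differed between populations, with a median of 13104 and 8999 UMIs in LysoDCs and 4409 and 5920 in Ly6C+ monocytes. After each cell was thinned to 1500 UMIs, 3.80% and 4.48% of LysoDCs had 3 or more mitotic genes, against 0 in Ly6C+ monocytes of both datasets, 0.156% and 0 in CD43+ monocytes and 0.0601% and 0.163% in DN blood cells. Thinning left out 33 and 11 LysoDCs that were shallower, and between 1 and 124 cells per blood population. LysoDC shares were thus above those of blood at equal depth too, and lower than over all UMIs.

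**Figure D3:**
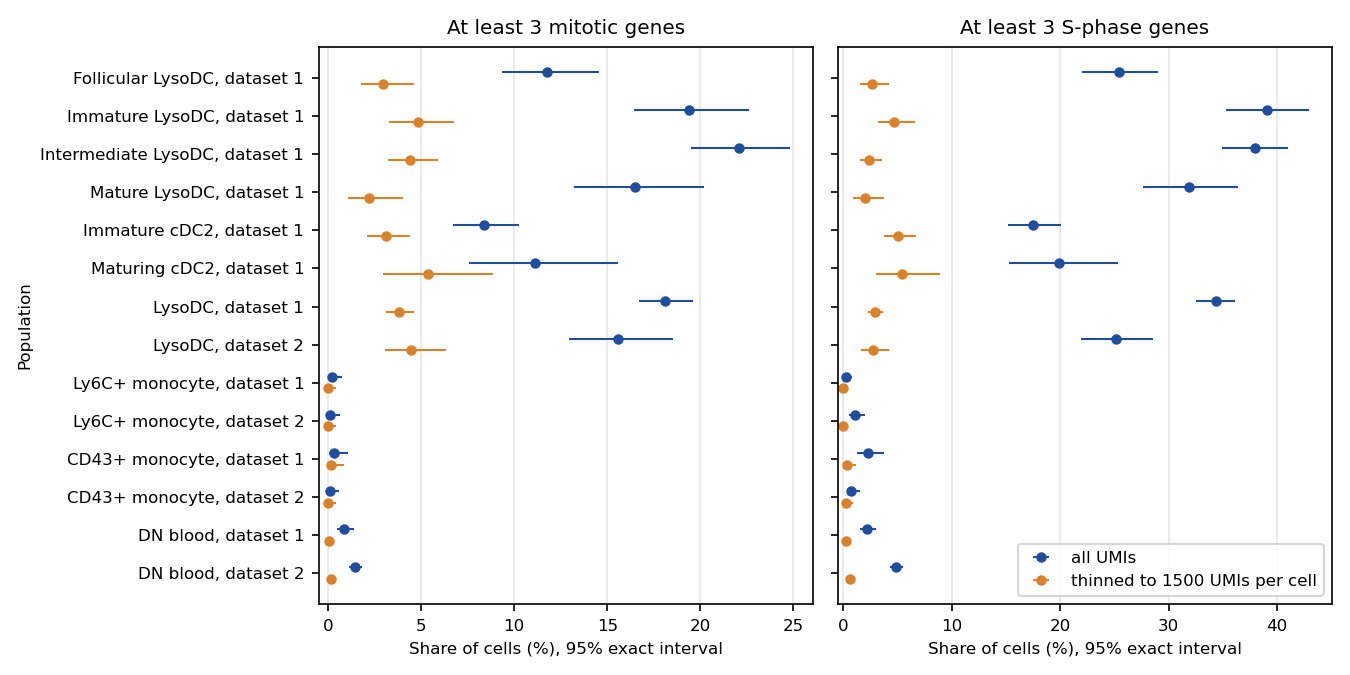
Share of cells with at least 3 distinct mitotic genes (left) or S-phase genes (right) in each population, with 95% exact intervals, over all UMIs (blue) and after thinning to 1500 UMIs per cell (orange). The patch populations lie above blood on both measures. For mitotic genes LysoDCs of dataset 1 lie above cDC2s in blue, at 18.1% against 8.35% and 11.1%, and their intervals overlap in orange, while for S-phase genes LysoDCs lie above cDC2s in blue and below them in orange, at 2.91% against 5.08% and 5.38%.

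S-phase genes gave a wider class. At least 3 of 14 were found in 34.3% and 25.1% of LysoDCs, 0.215% and 1.04% of Ly6C+ monocytes, 2.26% and 0.735% of CD43+ monocytes and 2.21% and 4.89% of DN blood cells. After thinning, the shares were 2.91% and 2.69% in LysoDCs and 0.240% and 0.590% in DN blood cells. Of LysoDCs with 3 or more mitotic genes, 58.1% and 52.8% also had 3 or more S-phase genes.

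The 40 genes differed in how tightly they were held by these cells. For each gene, the UMIs in LysoDCs were split between cells with at least 3 other mitotic genes and all other LysoDCs. Cells with 3 or more mitotic genes held 22.3% and 21.8% of all LysoDC UMIs, which is the share that a gene outside the mitotic list would have at equal CPM in both kinds of cell. For a mitotic gene the class leaves out the gene itself and is smaller, so that this share is lower. The median over the 40 genes was 84.4% and 84.0%. In dataset 1, 14 genes had at least 90% of their UMIs in such cells, 19 had between 50% and 90%, and 7 had less.

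Genes at the top of this order were nearly restricted to such cells. Cdc20, the APC/C activator that starts anaphase, had 98.7% of 155 UMIs and 100% of 33 UMIs there. Hmmr, a spindle assembly protein, had 97.9% and 98.9%. Kif11, the motor that separates spindle poles, had 97.3% and 100%, and Rrm2, a subunit of ribonucleotide reductase, had 96.8% and 97.9%. Pclaf had 96.7% and 94.9%, and Ube2c 96.0% and 97.6%. Outside such cells, Ube2c was at 1.54 and 0.693 CPM, and inside at 136 and 104 CPM.

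Pole2, Bub1b and Mki67 were at the other end. Pole2 had 22.6% (95% interval 20.96% to 24.2%) and 19.6% (16.2% to 23.4%) of its UMIs in cells with 3 or more mitotic genes. Its level was 73.6 and 61.4 CPM in such cells and 72.7 and 70.1 CPM in the others, and 52.0% and 43.8% of the other LysoDCs had a Pole2 UMI. Its level was thus similar in LysoDCs with and without other mitotic genes. Bub1b had 20.9% and 16.8% of its UMIs in cells with 3 other mitotic genes, at 55.6 and 67.0 CPM there and 35.5 and 48.1 CPM elsewhere. Without Bub1b itself in the list, such cells held 14.4% and 12.6% of all UMIs.

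Mki67 had both components. Cells with 3 other mitotic genes held 43.3% (41.6% to 44.9%) and 50.3% (46.7% to 54.0%) of its UMIs, at 323 and 369 CPM. The remaining LysoDCs still had 62.9 and 57.3 CPM, and 46.4% and 36.4% of them had a Mki67 UMI. In immature cDC2s of dataset 1, the remaining cells had 22.5 CPM of Mki67, 11.9 CPM of Bub1b and 17.4 CPM of Pole2, all below the LysoDC values. Blood populations, where nearly all cells are outside the class, had 1.54 to 9.95 CPM of Mki67. Among replication genes, Mcm3 (34.5% and 35.9%) and Pcna (38.1% and 38.0%) were also spread widely.

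In LysoDCs, 92.3% and 89.6% of Kif23 UMIs were in cells with 3 other mitotic genes, at 27.4 and 38.5 CPM, with 0.652 and 1.21 CPM in the rest. In DN blood cells, 1.26% and 1.81% of Kif23 UMIs were in such cells, which held 0.520% and 1.06% of all DN UMIs, and the rest had 30.8 and 38.2 CPM. Cenpa had 87.5% and 89.0% of its LysoDC UMIs in such cells, and 3.13% and 4.06% of its DN UMIs. Hmgb2 had 57.8% and 58.0%, at 319 and 436 CPM inside and 67.2 and 87.8 CPM outside.

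**Figure D4:**
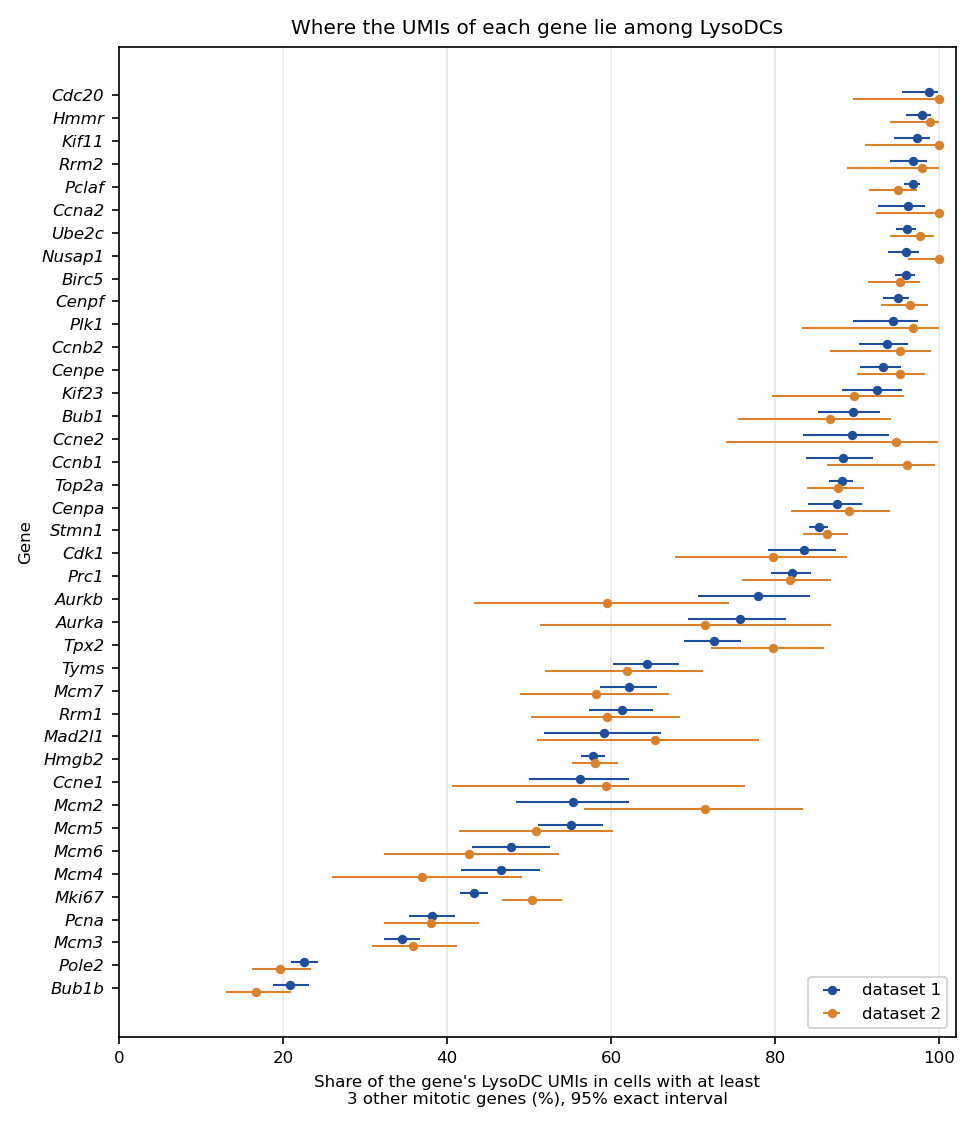
Share of each gene's LysoDC UMIs that lay in cells with at least 3 other mitotic genes, with 95% exact intervals, for dataset 1 (blue) and dataset 2 (orange). Cdc20, Hmmr and Kif11 lie near 100% in both datasets, Mki67 near 43.3% and 50.3%, and Pole2 near the 22.3% and 21.8% of all UMIs that its class of cells holds. Bub1b is at 20.9% and 16.8%, where its class, defined without it, holds 14.4% and 12.6%.

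Promoters of these genes are printed because cell cycle genes are known to be controlled through short elements near the start: the CHR element bound by the DREAM and MuvB complexes, CCAAT boxes bound by NF-Y, and E2F sites. RefSeq promoter windows (GRCm38.p6) were matched by symbol for 34 of the 40 genes, 250 bases before to 50 after the start. The letters searched on both strands were TTTGAA and TTCGAA for CHR, CCAAT for the CCAAT box, and TTTCCCGC, TTTGGCGC, TTTCGCGC and TTTGCCGC for E2F. A match is only a match of letters. The 8 windows below run from 150 bases before the start to 30 after, in gene sense, with matches in capitals. The start is that of RefSeq, and for Hmgb2 the GENCODE M21 start used for gene positions lies downstream of the whole window. The first 3 belong to genes held mostly by cells with many mitotic genes, the next 3 to genes also found outside them, and the last 2 to the genes lower in LysoDCs than in monocytes.
Cdc20: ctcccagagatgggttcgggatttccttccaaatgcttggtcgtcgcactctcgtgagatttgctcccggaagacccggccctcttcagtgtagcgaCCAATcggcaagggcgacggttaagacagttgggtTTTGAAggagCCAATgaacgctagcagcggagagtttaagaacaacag
Ube2c: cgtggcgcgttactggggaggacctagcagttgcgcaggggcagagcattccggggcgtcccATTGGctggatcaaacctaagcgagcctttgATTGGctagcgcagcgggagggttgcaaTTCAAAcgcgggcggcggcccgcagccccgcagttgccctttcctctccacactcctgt
Cdk1: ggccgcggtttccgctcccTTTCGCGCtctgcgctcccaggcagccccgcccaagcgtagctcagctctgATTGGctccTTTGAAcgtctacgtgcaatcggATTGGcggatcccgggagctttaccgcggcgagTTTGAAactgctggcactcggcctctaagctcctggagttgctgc
Mki67: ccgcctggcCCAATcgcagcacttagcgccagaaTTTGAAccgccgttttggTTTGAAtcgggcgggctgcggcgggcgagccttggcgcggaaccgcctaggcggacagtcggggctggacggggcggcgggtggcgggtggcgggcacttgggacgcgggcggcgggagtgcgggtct
Bub1b: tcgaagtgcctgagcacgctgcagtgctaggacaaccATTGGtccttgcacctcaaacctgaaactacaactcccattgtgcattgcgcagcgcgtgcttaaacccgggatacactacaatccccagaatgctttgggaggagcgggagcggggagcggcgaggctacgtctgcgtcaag
Pole2: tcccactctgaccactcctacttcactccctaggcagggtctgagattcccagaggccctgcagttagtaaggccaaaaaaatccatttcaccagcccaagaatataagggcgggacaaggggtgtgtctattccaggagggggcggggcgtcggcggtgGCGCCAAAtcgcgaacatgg
Kif23: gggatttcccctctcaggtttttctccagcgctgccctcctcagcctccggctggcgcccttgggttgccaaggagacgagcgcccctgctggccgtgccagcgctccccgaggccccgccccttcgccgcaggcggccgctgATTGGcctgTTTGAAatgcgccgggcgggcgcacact
Hmgb2: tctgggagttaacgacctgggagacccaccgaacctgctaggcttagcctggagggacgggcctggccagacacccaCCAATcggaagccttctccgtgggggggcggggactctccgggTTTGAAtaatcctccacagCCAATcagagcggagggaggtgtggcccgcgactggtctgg

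The windows lie at chr4:118437314-118437493 (minus strand) for Cdc20, chr2:164769779-164769958 (plus strand) for Ube2c, chr10:69352883-69353062 (minus strand) for Cdk1, chr7:135716350-135716529 (minus strand) for Mki67. Those of Bub1b, Pole2, Kif23 and Hmgb2 lie at chr2:118598061-118598240 (plus), chr12:69228161-69228340 (minus), chr9:61946770-61946949 (minus) and chr8:57511693-57511872 (plus), all in the GRCm38.p6 build.

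Over the full windows, 16 of 21 mitotic genes with a window held a CHR match and a CCAAT match (76.2%), against 2 of 12 S-phase genes (16.7%) and 7.52% of all 32851 windows. E2F letters were found for 6 of 12 S-phase genes (50.0%) and 1 of 21 mitotic genes (4.76%), against 2.26% of all windows. CHR letters alone occur in 19.2% and CCAAT in 37.4% of all windows. In the printed stretches, Cdc20, Ube2c, Cdk1, Mki67, Kif23 and Hmgb2 each hold a CHR and a CCAAT match, Bub1b a CCAAT match and Pole2 an E2F match. The full Bub1b window also holds 2 CHR matches outside the printed stretch. Mki67, spread over many LysoDCs, and Cdc20, held by few, both have CHR and CCAAT letters.

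Within the patch, the LysoDC subsets and cDC2s of dataset 1 are single pools in 1 library, so no test was made between them and differences are named at 2-fold or more. The summed mitotic genes stood at 388 CPM (Poisson 95% interval 373 to 403) in follicular, 497 (482 to 512) in immature, 477 (465 to 488) in intermediate and 341 (326 to 356) in mature LysoDCs. All were within 2-fold of immature LysoDCs, and with 1 pool each no order is read from them. Shares of cells with 3 or more mitotic genes were 11.8%, 19.4%, 22.1% and 16.5% in the same order. After thinning to 1500 UMIs they were 2.95%, 4.81%, 4.41% and 2.22%, and the intervals of all 4 subsets overlapped (1.76% to 4.62%, 3.29% to 6.75%, 3.21% to 5.90% and 1.07% to 4.04%).

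Mature LysoDCs had 7 of the 40 genes 2-fold or more below the level in immature LysoDCs, and 33 within 2-fold. Nusap1, which binds spindle microtubules, was at 5.07 against 18.3 CPM, 3.62-fold lower. Mcm2, Rrm2, Tyms, Ccne2, Aurka and Bub1 were between 2.03-fold and 2.39-fold lower. In follicular LysoDCs, Ube2c was 2.25-fold lower than in immature LysoDCs (16.8 against 37.8 CPM), and Cdc20 was 2.01-fold lower with overlapping intervals. Intermediate LysoDCs had 1 gene beyond 2-fold, Ccne2, at 2.74 against 6.38 CPM. The counts are small in these subsets and each is 1 pool. The share of all genes beyond 2-fold between these pools was not computed. Numbers of genes beyond 2-fold are therefore not read as particular to the cell cycle.

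In cDC2s the mitotic sum was 457 CPM (442 to 473) in immature and 573 CPM (541 to 607) in maturing cDC2s, and the S-phase sum was 407 and 523 CPM, against 497 and 377 CPM for the same sums in immature LysoDCs. Of the 40 genes, 33 were within 2-fold between immature cDC2s and immature LysoDCs, again with no share over all genes to set beside it. Immature cDC2s were higher in Mcm4 (29.6 against 14.3 CPM), Mcm6 (34.1 against 12.2), Hmgb2 (273 against 127) and Kif23 (14.8 against 4.78), all with separate intervals. They were lower in Pole2 (17.2 against 71.5 CPM), Bub1b (18.4 against 41.4) and Cdc20 (2.56 against 5.35, with overlapping intervals).

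The share of cells with 3 or more mitotic genes was nevertheless 8.35% in immature and 11.1% in maturing cDC2s, below the 18.1% of LysoDCs. Median depth was 7388 and 7480 UMIs in cDC2s. After thinning to 1500 UMIs, the shares were 3.11% (2.11% to 4.41%) and 5.38% (2.98% to 8.87%), and that of LysoDCs was 3.80% (3.11% to 4.600%). When Mki67 and Bub1b were left out of the mitotic list, a choice made after the data were seen, LysoDCs had 7.44% and 8.08%, immature cDC2s 6.19% and maturing cDC2s 8.43%. Without Pole2 in the S-phase list, likewise chosen after the data were seen, the S-phase share was 19.6% in LysoDCs of dataset 1 and 16.3% and 18.4% in cDC2s, where the full list had given 34.3%, 17.5% and 19.9%. Thinning turned the order of the S-phase shares. With the full list and 1500 UMIs per cell, the share was 2.91% (2.31% to 3.62%) in LysoDCs of dataset 1, 5.08% (3.78% to 6.66%) in immature cDC2s and 5.38% (2.98% to 8.87%) in maturing cDC2s, and at 3000 UMIs it was 5.66%, 8.65% and 10.8%. At full depth, the shares of LysoDCs and cDC2s were closer together without these 3 genes, which LysoDCs also carried outside cells with many mitotic genes.

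In dataset 2, 3 LysoDC hashtags had at least 50 cells. Shares with 3 or more mitotic genes were 13.6% of 213 cells (9.31% to 19.0%), 16.2% of 321 cells (12.3% to 20.7%) and 15.4% of 143 cells (9.90% to 22.4%), with overlapping intervals. The fourth hashtag had 4 cells, 3 of them with 3 or more mitotic genes. The labels assign none of these hashtags to a subset.

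Markers of other cells were summed in LysoDCs with and without 3 or more mitotic genes, and B cell markers were higher in the former among follicular LysoDCs. The 10 B cell markers summed to 350.0 and 296 CPM in LysoDCs with 3 or more mitotic genes and to 334 and 327 CPM in the others, and in follicular LysoDCs to 757 against 417 CPM. The part of B cell transcript in the follicular share of 11.8% was not tested. T cell markers summed to at most 7.47 CPM in these groups and epithelial markers to at most 15.96 CPM. The LysoDC markers themselves summed to 62274 and 55642 CPM in LysoDCs with 3 or more mitotic genes and 67560 and 63702 CPM in the others. Cells with 3 or more mitotic genes had a median of 15712 and 16208 UMIs, more than cells with fewer than 3 genes of either list (11790 and 7910).

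In blood, most of the 40 genes were at a higher percentage of their LysoDC level than the C1q genes were. In Ly6C+ monocytes this held for 33 of 40 genes in each dataset. The number was 33 and 35 in CD43+ monocytes and 39 and 40 in DN blood cells. The same count was not made over all genes, and C1q genes are far higher in LysoDCs than in blood. These numbers are therefore not read as a trait of the 40 genes. The genes at or below it in Ly6C+ monocytes of dataset 1 were Pclaf, Ccne1, Ccna2, Ccnb1, Bub1, Kif11 and Tpx2. The mitotic sum was at 14.4% and 9.59% of the LysoDC level in Ly6C+ monocytes, 21.3% and 14.9% in CD43+ monocytes and 21.5% and 20.0% in DN blood cells.

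Beyond the 40 genes, other genes of the cycle were read from 4 lists. For LysoDCs against monocytes, 57.3% of all genes tested passed, 29.9% as higher and 27.4% as lower. Of 38 tested genes of replication origins and forks, 30 were higher and 2 lower in LysoDCs than in monocytes, and 6 did not pass. Rfc5 of the clamp loader was at 43.6 and 48.0 CPM in LysoDCs and 7.70 to 12.1 CPM in monocytes (log2 fold change 2.47 ± 0.16), and Pole, the catalytic subunit of polymerase epsilon, was at 5.55 and 4.50 CPM against at most 0.415 CPM. Dnmt1, the maintenance DNA methyltransferase, was higher by 1.59 ± 0.12. The 2 lower genes were Mcmbp, an MCM-binding protein, at 31.2 and 38.5 CPM in LysoDCs and 68.4 to 110.1 CPM in monocytes (-1.06 ± 0.12), and Rpa2 (-0.51 ± 0.18).

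Of 48 tested genes of mitosis and cytokinesis, 42 were higher, 2 lower and 4 did not pass. Cdca8, the passenger complex protein borealin, was at 25.4 and 27.3 CPM in LysoDCs and 1.92 to 5.81 CPM in monocytes (3.24 ± 0.21). Ncapg2 of condensin, Knl1 of the kinetochore and the tubulin gene Tubb5 were higher by 3.24 ± 0.26, 3.34 ± 0.29 and 1.49 ± 0.12. Pttg1, securin, and Bub3 of the checkpoint were lower, by log2 fold changes of -0.56 ± 0.12 and -0.30 ± 0.11.

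Of 26 tested genes of cell cycle transcription and control, 17 were higher, 6 lower and 3 did not pass. E2f2, an E2F transcription factor, was at 4.65 and 5.46 CPM in LysoDCs and 54.4 to 79.4 CPM in monocytes (-3.44 ± 0.17, adjusted p = 8.31e-08), and Ccnd3, a D-type cyclin, at 39.9 and 29.2 against 169 to 286 CPM (-2.49 ± 0.14, adjusted p = 2.35e-07). Cks1b, a Cdk subunit, and Ccnf, cyclin F, were higher by 2.89 ± 0.20 and 4.27 ± 0.43. Cks2, Rb1, Lin54 and Rbl1 were lower, by log2 fold changes from -1.24 to -0.51. Rb1 and Cks2 were highest in CD43+ monocytes, at 115 and 121 CPM for Rb1 and 58.5 and 66.6 CPM for Cks2.

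Of 13 inhibitors and antiproliferative genes, 3 were higher in LysoDCs, 6 lower and 4 did not pass. That is 23.1% higher and 46.2% lower, against 29.9% and 27.4% over all genes tested. Cdkn2b, the Cdk4 and Cdk6 inhibitor p15, was at 45.1 and 41.9 CPM in LysoDCs and 0.192 to 2.49 CPM in monocytes (5.55 ± 0.56, adjusted p = 0.00044). Cdkn2a, the p16 and p19ARF locus, was at 26.8 and 19.5 CPM against 0 to 2.08 CPM (4.69 ± 0.43, adjusted p = 2.96e-05), and Cdkn1a, p21, was higher by 0.72 ± 0.15. Cdkn1b, Btg2 and Cdkn2d were lower, by log2 fold changes of -1.46 ± 0.13, -1.54 ± 0.15 and -1.76 ± 0.18. Cdkn2b and Cdkn2a were found in LysoDCs with and without mitotic genes: Cdkn2b was at 38.9 and 35.1 CPM in cells with 3 or more and 46.9 and 43.8 CPM in the others, and Cdkn2a at 31.8 and 17.5 against 25.4 and 20.1 CPM. LysoDC sums that held more mitotic transcript than blood sums thus also held more of these 2 inhibitors.

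Against DN blood cells the same 4 lists had 17 higher and 1 lower of 38, 41 and 2 of 48, 11 and 2 of 26, and 4 and 6 of 13. Over all genes tested 52.1% passed in that comparison, 26% as higher and 26.1% as lower. The 18 of 38 replication genes that passed are near that total, and so are the transcription and control genes that passed. By direction, 44.7% and 42.3% of these lists were higher and 2.63% and 7.69% lower.

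Several of the 40 genes overlap others in the GENCODE M21 annotation, and how overlapping reads were assigned is not given in the sources used here. Pole2 (12:69201773-69228195, minus strand) overlaps Gm49384 on its strand, and Gm47545 on the other. Bub1b (2:118598211-118641591, plus strand), Kif23 (9:61915905-61946774, minus) and Hmgb2 (8:57511907-57515999, plus) overlap no annotated gene, and Mki67 (7:135689784-135716361, minus) overlaps Gm45240 on the other strand. Of the 40 genes, 9 overlap a gene on the same strand and 14 on the other, and 5 have copies named in the annotation, Pcna, Tyms, Ccnb1, Ccnb2 and Stmn1. Values for these genes are less certain where reads could fall in either gene.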

How the data were processed

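Single-cell gene and hashtag UMI counts were analysed as deposited. Per the file headers, the matrices hold raw counts per gene or hashtag and barcode from Cell Ranger 6.0.1, while the submitters' processing notes name Cell Ranger 2.0.0 and mm10. Other upstream steps are not given in the sources used here.

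HTODemux in Seurat 5.3.0, at a quantile of 0.99, assigned 1 hashtag to 8343 of the 11878 barcodes in dataset 1 and to 8516 of the 13111 in dataset 2. Barcodes with several hashtags (2422 and 4572) were taken as doublets and dropped, as were those with no hashtag (1113 and 23). Barcodes under 1000 UMIs or 500 detected genes, or above 10% of UMIs from mitochondrial genes, were also dropped. CPM are UMIs of a gene per 1000000 UMIs of the sum.

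Counts were summed per population and dataset and tested in edgeR 4.0.16 (TMM, filterByExpr, robust quasi-likelihood, dataset as block), with 3 residual degrees of freedom and a biological coefficient of variation of 0.141. P-values were two-sided and adjusted over 11458 genes. Each SE is the absolute log2 fold change divided by the square root of the F statistic, and is not a separately fitted standard error. The sums were paired by dataset, the replicate number: deviations between datasets correlated over genes at 0.20 to 0.40 in all 6 pairs of populations. On simulated counts, 72.4% of 2-fold and 97.1% of 4-fold changes were recovered, with 3 false calls among 11107 genes. The simulation had the same spread for every gene, no shift between datasets and few changed genes. These rates are therefore a check of the code and need not hold for the data. Promoter windows came from RefSeq and gene positions from GENCODE M21.

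The gene set, lists and tests were chosen with earlier results of these data known. Values in every sum are given for the 4 genes of each role group with the highest mean CPM and for any gene against its group. For the other lists, the 4 genes with the lowest adjusted p and up to 4 called in the opposite direction are named. Genes singled out otherwise, such as those named for their spread among LysoDCs, were chosen after their values were seen. Shares are percent of cells, with exact Clopper-Pearson 95% intervals, and levels have Poisson intervals. Alternatives were DESeq2 1.42.0, other scaling, filters, hashtag calls, thinning and leaving out each sum. One list of marker genes is not reported here.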

Additional observations from a re-analysis of the deposited data

Results flagged for a closer look

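Cells that HTODemux called as carrying several hashtags were left out of every comparison. Some of them had a LysoDC hashtag at 80% or more of their hashtag UMIs and passed the cell filters. Among these, 24.8% of 596 cells in dataset 1 and 19.1% of 2239 cells in dataset 2 had 3 or more mitotic genes, above the 0.105% to 0.302% of monocytes. Their median depth was 16182 and 9820 UMIs. Dataset 2 thus held more such cells than the 681 LysoDCs that were used.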

How the results depend on the processing

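The counts for LysoDCs against monocytes (38) and against DN blood cells (32) stayed within 1.5 times under every alternative run. Leaving out 1 sum gave 33 to 38 and 29 to 32. The 3 blood comparisons were less stable: leaving out 1 sum gave 2 to 15 calls for DN blood cells against Ly6C+ monocytes (13), 1 to 9 against CD43+ monocytes (6) and 2 to 8 for CD43+ against Ly6C+ monocytes (6). With the background-scaled hashtag call, DN blood cells against Ly6C+ monocytes gave 5, beside 1417 of 11315 genes over all. The log2 fold change of Top2a went from 1.49 to -0.36. DN blood cells against CD43+ monocytes gave 3 with DESeq2, beside 3163 of 11458 genes over all. Without the dataset as replicate block the 5 comparisons in the order of the report gave 37, 31, 9, 2 and 4 calls. Over all 11458 genes they gave 5732, 4984, 963, 2792 and 2251. The hashtag call by highest share left no CD43+ monocytes in dataset 1, so its edgeR fits could not be run. The cause of these shifts was not tested.

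Shares of LysoDCs moved with the limit, the list and the depth. For mitotic genes (18.1% and 15.6%), at least 2 genes gave 42.9% and 35.2%, at least 5 gave 6.12% and 6.02%, the list without Mki67 and Bub1b 7.44% and 8.08%, the same thinned to 3000 UMIs 4.71% and 4.47%, thinning to 1500 UMIs 3.80% and 4.48%, and to 3000 UMIs 5.13% and 4.47%. The highest-share call gave 21.7% in dataset 1. For S-phase genes (34.3% and 25.1%), at least 2 genes gave 60.9% and 47.9%, at least 5 gave 9.10% and 7.05%, the list without Pole2 19.6% and 15.7%, thinning to 1500 UMIs 2.91% and 2.69%, and to 3000 UMIs 5.66% and 5.10%. The highest-share call gave 39.7% and 29.2% and the background-scaled call 36.3% and 29.1%.

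Sums of patch subsets moved outside their intervals in some cases. By highest share, follicular LysoDCs had 404 (mitotic) and 238 (S-phase) CPM, intermediate 346 (S-phase), and mature 321 and 256. By the background-scaled call, intermediate LysoDCs had 335 (S-phase), mature 298 (mitotic), immature cDC2s 421 and 380.1, and maturing cDC2s 466 and 457. With at most 5% mitochondrial UMIs, follicular LysoDCs had 403 (mitotic).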
